A study of Mus musculus with 12 samples.

Results

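The genes described here are 42 type I interferon antiviral genes, listed by symbol: the IFIT, OAS, IFITM, TRIM and PARP genes, ISG15 and its partners, RNA and DNA sensors and other interferon-stimulated genes. Each was found on the array through the RefSeq transcript that a probe carries, and the brightest probe stood for a gene with several. A probe was found for 35 of the 42, and 34 of these were tested among 21863 items, 13655 of them named genes. Herc6, Oas1b, Mx1, Mx2, Samd9l, Dtx3l and Xaf1 matched no probe and were not analysed here. Oas1g, a close copy of Oas1a, had 1 probe that was not well above background on any array and was not tested. The other 34 were well above background on 3 of 3 arrays in every group, so none entered only because it was high in 1 group.

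The study measured lung RNA of female FVB/N mice (strain FVB/NJ in the sample labels), 7 weeks old at the start, on 12 one-colour Agilent arrays, 1 mouse per array and 3 mice per group. LPS/NNK mice received both agents described next. LPS mice received lipopolysaccharide, the endotoxin of Gram-negative bacteria, given intranasally at 5 µg per mouse, once a week over 16 weeks. NNK mice received the tobacco-specific nitrosamine NNK, a lung carcinogen, given intraperitoneally at 3 mg per mouse over the first 4 weeks. The labels call this schedule both biweekly and semi-weekly, and name no vehicle for these mice. PBS mice received saline weekly for 16 weeks. Animals were killed 1 week after the last treatment, and the labels do not say whether NNK mice were killed at the same age as the others. The labels number the mice within each group, and p-values measure the spread between those mice. In whole lung, fewer cells of a type and less RNA per cell cannot be told apart.

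Interferons alpha and beta bind the receptor IFNAR1/IFNAR2, whose kinases JAK1 and TYK2 start the signal. A complex that holds IRF9 then binds the interferon-stimulated response element in promoters and switches on the antiviral genes. Their products sense foreign nucleic acid, block translation of viral RNA, degrade it, or hold virus particles at membranes. LPS is sensed by TLR4, which can lead to interferon beta through TICAM1 and IRF3. Interferon gamma acts through a different receptor and raises part of the same gene set.

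Promoter stretches are printed for members that carry the findings below. Bst2, Trim30a and Oasl2 had the largest differences between LPS/NNK and NNK lungs among the called members with a promoter entry. Isg15, Ifit3, Rsad2 and Oas1a were added after their values were seen, because they moved in opposite directions against PBS. Each stretch is the 160 bases before the gene's start in RefSeq's annotation of GRCm38.p6, which is the C57BL/6J sequence and not that of FVB/N. Where a gene had several starts, the one with the most matches to the element below was printed. Trim30a has a second start, which held 0 matches. Capitals mark matches to the response element searched, which was GAAA, any 2 bases and GAAA again, or its reverse complement (TTTC, any 2 bases, TTTC), so both strands were searched and matches may overlap.
Bst2: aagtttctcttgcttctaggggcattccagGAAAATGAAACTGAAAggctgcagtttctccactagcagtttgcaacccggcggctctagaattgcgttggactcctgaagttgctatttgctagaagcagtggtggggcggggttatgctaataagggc
Trim30a: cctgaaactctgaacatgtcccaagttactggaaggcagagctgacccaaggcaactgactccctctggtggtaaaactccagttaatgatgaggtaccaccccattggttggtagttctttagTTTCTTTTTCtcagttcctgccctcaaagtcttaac
Oasl2: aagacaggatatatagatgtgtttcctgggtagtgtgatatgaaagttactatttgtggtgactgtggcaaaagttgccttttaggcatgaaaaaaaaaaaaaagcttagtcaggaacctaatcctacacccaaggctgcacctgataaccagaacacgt
Isg15: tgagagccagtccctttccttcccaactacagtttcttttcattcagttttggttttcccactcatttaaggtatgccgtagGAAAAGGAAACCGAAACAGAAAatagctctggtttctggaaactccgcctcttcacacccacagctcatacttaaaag
Ifit3: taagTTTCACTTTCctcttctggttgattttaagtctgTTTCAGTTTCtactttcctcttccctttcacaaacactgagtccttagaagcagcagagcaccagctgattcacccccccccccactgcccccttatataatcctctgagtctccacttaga
Rsad2: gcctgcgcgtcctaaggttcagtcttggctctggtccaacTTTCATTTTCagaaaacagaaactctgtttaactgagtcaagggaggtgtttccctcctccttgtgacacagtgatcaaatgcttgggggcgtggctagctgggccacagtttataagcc
Oas1a: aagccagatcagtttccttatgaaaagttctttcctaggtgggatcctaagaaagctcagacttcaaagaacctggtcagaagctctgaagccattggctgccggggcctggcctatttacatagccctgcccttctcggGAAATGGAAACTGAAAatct
They lie at chr8:71537473-71537632 (minus strand), chr7:104465194-104465353 (minus strand), chr5:114896774-114896933 (plus strand), chr4:156200819-156200978 (minus strand), chr19:34583369-34583528 (plus strand), chr12:26456453-26456612 (minus strand) and chr5:120907526-120907685 (minus strand). The Isg15 stretch held 3 overlapping matches, those of Bst2 and Oas1a 2 overlapping matches each, that of Ifit3 2 separate ones, and those of Trim30a and Rsad2 1 each. None was present in the Oasl2 stretch. Of 29 members with an entry, 9 (31.0%) held a match within 250 bases before a start, against 936 of 27025 genes (3.46%). The letters were thus present both upstream of members that were lower than PBS in LPS or NNK lungs (Ifit3, Isg15, Rsad2) and of one that was higher in LPS lungs (Oas1a).

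Before the results, 4 features of the arrays need stating. The 75th percentile of the processed signal, by which each array was scaled, was 183 to 510 on treated arrays and 699 to 984 on PBS arrays. Arrays of treated mice correlated with PBS arrays at 0.878 to 0.933 over the items tested, against 0.978 to 0.984 among the PBS arrays, and 51.5% to 56.0% of all items were called in each comparison with PBS. On PBS 1 and PBS 2 the Y-linked genes Ddx3y, Eif2s3y, Kdm5d and Uty were well above background and Xist was not. The labels call all mice female, so members' calls against PBS that were lost without those 2 arrays are named. Calls of the other gene lists were not checked in this way. LPS arrays shared no slide with any other group, so slide and group cannot be told apart for LPS. Of the other slides, 2 held an LPS/NNK and an NNK array each. Position on the slide was 1 for all PBS, 2 for all LPS and NNK and 4 for all LPS/NNK arrays. Position and group thus cannot be told apart, except between LPS and NNK.

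Throughout, a level is the log2 processed signal minus the log2 of the array's 75th percentile, and levels are given in the order of the mouse numbers (LPS/NNK 2, 3 and 6; LPS 1, 5 and 6; NNK 2, 3 and 5; PBS 1, 2 and 3). A difference is between group means on the log2 scale, with its standard error (SE) from limma's fit over all 12 arrays, n = 3 per group. A call means a limma p under 0.05 after Benjamini-Hochberg adjustment over all 21863 items.

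Adding LPS to NNK went with higher levels of the antiviral genes. Of 34 members, 12 were called higher in LPS/NNK than in NNK lungs and 0 lower, where 7.92% of all items were called higher and 9.34% lower (17.3% either way). The median difference of the members was 1.04, against -0.06 for all items. The 12 were Zbp1, Bst2, Trim30a, Oasl2, Rtp4, Parp14, Tor3a, Lgals3bp, Sp100, Parp9, Ifit3 and Dhx58. The LPS/NNK arrays all lay above the NNK arrays for 21 members and all below for 1, where this held for 15.7% and 20.2% of all items. Bst2, Parp14, Rtp4, Tor3a, Trim30a and Zbp1 kept the call under all 26 alternatives tried. Several of these could change little here. The deposited values equalled those used to within 0.000176. Leaving out LPS or PBS arrays changed only the shared estimate of spread and kept the members' median at 1.04. The count of members called higher was 7 without the array LPS/NNK 3, where 3.94% of all items were called higher. It was also 7 after normexp background correction, where the share was 1.53%. Within slides, the members' median difference was 0.85 between LPS/NNK 2 and NNK 3, with 29 of 34 positive, and 1.52 between LPS/NNK 3 and NNK 5, with 33 of 34 positive. In each pair the LPS/NNK array lay at position 4 and the NNK array at position 2.

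**Figure D1:**
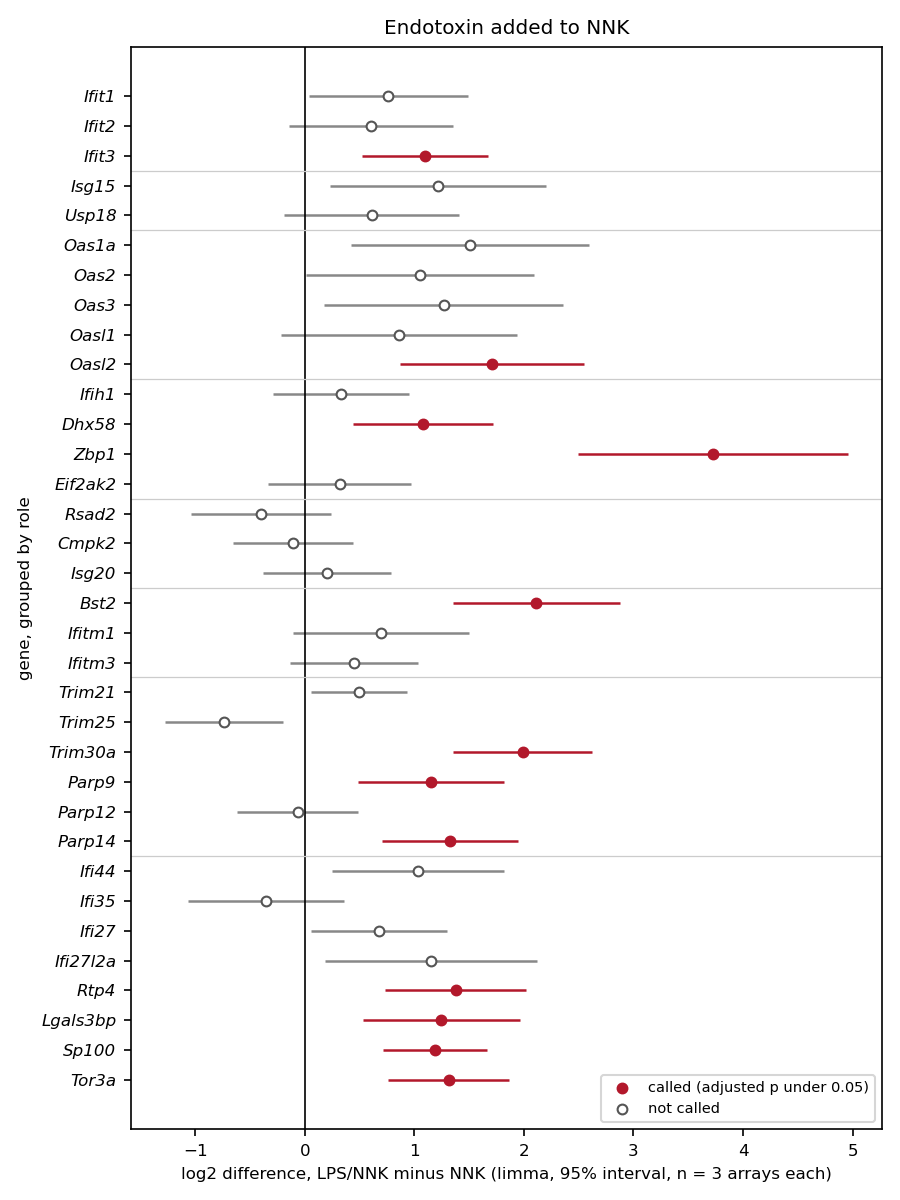
Log2 difference between LPS/NNK and NNK lungs for each of 34 genes, grouped by role, with limma's 95% confidence interval (n = 3 arrays per group). Filled points are the 12 called genes, all to the right of 0, and Zbp1 lies farthest out at 3.72.

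Against PBS, members were called in both directions, as were all items. With the scaling used, the share called either way was below that of all items in each treated group. In LPS lungs 12 members were called higher and 6 lower, where 26.1% of all items were called higher and 29.9% lower (56.0% either way), and the median was 0.10 against -0.06 for all items. In NNK lungs 6 were called higher and 8 lower, where the shares of all items were 27.8% and 23.7% (51.5% either way), and the median was -0.29 against 0.04. In LPS/NNK lungs 17 were called higher and 1 lower, where the shares were 27.9% and 27.1% (55.1% either way), and the median was 0.71 against -0.04. Without PBS 1 and PBS 2 these counts were 6 and 1 for LPS, 1 and 1 for NNK, and 10 and 0 for LPS/NNK, where the shares of all items called higher and lower were also smaller, at 13.0% and 13.0%, 12.6% and 7.02%, and 17.5% and 12.8%. Scaling moved these counts as well. Higher and lower calls were 9 and 8 in LPS, 5 and 15 in NNK and 13 and 5 in LPS/NNK lungs under quantile normalization, where the shares of all items were 26.0% and 30.7%, 26.0% and 26.2%, and 26.3% and 29.2%. With the array median in place of the 75th percentile the counts were 13 and 2, 7 and 4, and 18 and 1, where the shares were 37.4% and 19.8%, 33.9% and 17.9%, and 35.6% and 19.5%. After normexp background correction the members' median lay below that of all items in every comparison with PBS, at 0.45 against 0.53 for LPS/NNK, 0.07 against 0.33 for LPS and -0.41 against 0.55 for NNK. For LPS it also lay below that of all items without a filter on dim probes (0.12 against 0.49) and with probes above background on all arrays (0.10 against 0.18). Single arrays also mattered. The 6 lower calls in LPS lungs became 2 without PBS 1, where 25.5% of all items were called lower. The 6 higher calls in NNK lungs became 2 without PBS 2, NNK 2 or NNK 3, where 22.1% to 23.0% were called higher. The 8 lower calls in NNK lungs became 3 without PBS 1 (18.1% of all items) or NNK 5 (22.1%). All arrays of the LPS group lay above the PBS arrays for 11 members and below for 8, where this held for 29.5% and 33.0% of all items. For NNK arrays the counts were 7 and 14 (35.2% and 32.4% of all items), and for LPS/NNK arrays 18 and 5 (30.3% and 31.6%). These 3 comparisons share the PBS arrays.

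Few members were called between LPS/NNK and LPS lungs. Trim30a and Sp100 were called higher in LPS/NNK lungs and 0 members lower, where 2.84% of all items were called higher and 1.26% lower (4.10% either way), with a members' median of 0.49 against 0.11. Between LPS and NNK lungs, Zbp1 and Bst2 were called higher in LPS and 0 members lower, where the shares were 2.74% and 3.47% (6.21% either way). The LPS/NNK arrays all lay above the LPS arrays for 12 members and below for 1 (12.9% and 8.0% of all items), and the LPS arrays all lay above the NNK arrays for 11 and below for 0 (8.57% and 15.9%). Leaving out 1 array gave 0 to 6 higher calls for the first comparison, with 6 without LPS/NNK 2 and 0 without LPS/NNK 3 or LPS/NNK 6. The shares of all items called higher moved the same way, at 13.2%, 0.284% and 0.425%. For the second comparison leaving out 1 array gave 0 to 5, with 5 without LPS 6. The count was 0 without LPS 1, LPS 5 or any 1 of the NNK arrays. There 3.14% of all items were called higher without LPS 6, and 1.66% to 1.90% without the other arrays named.

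**Figure D2:**
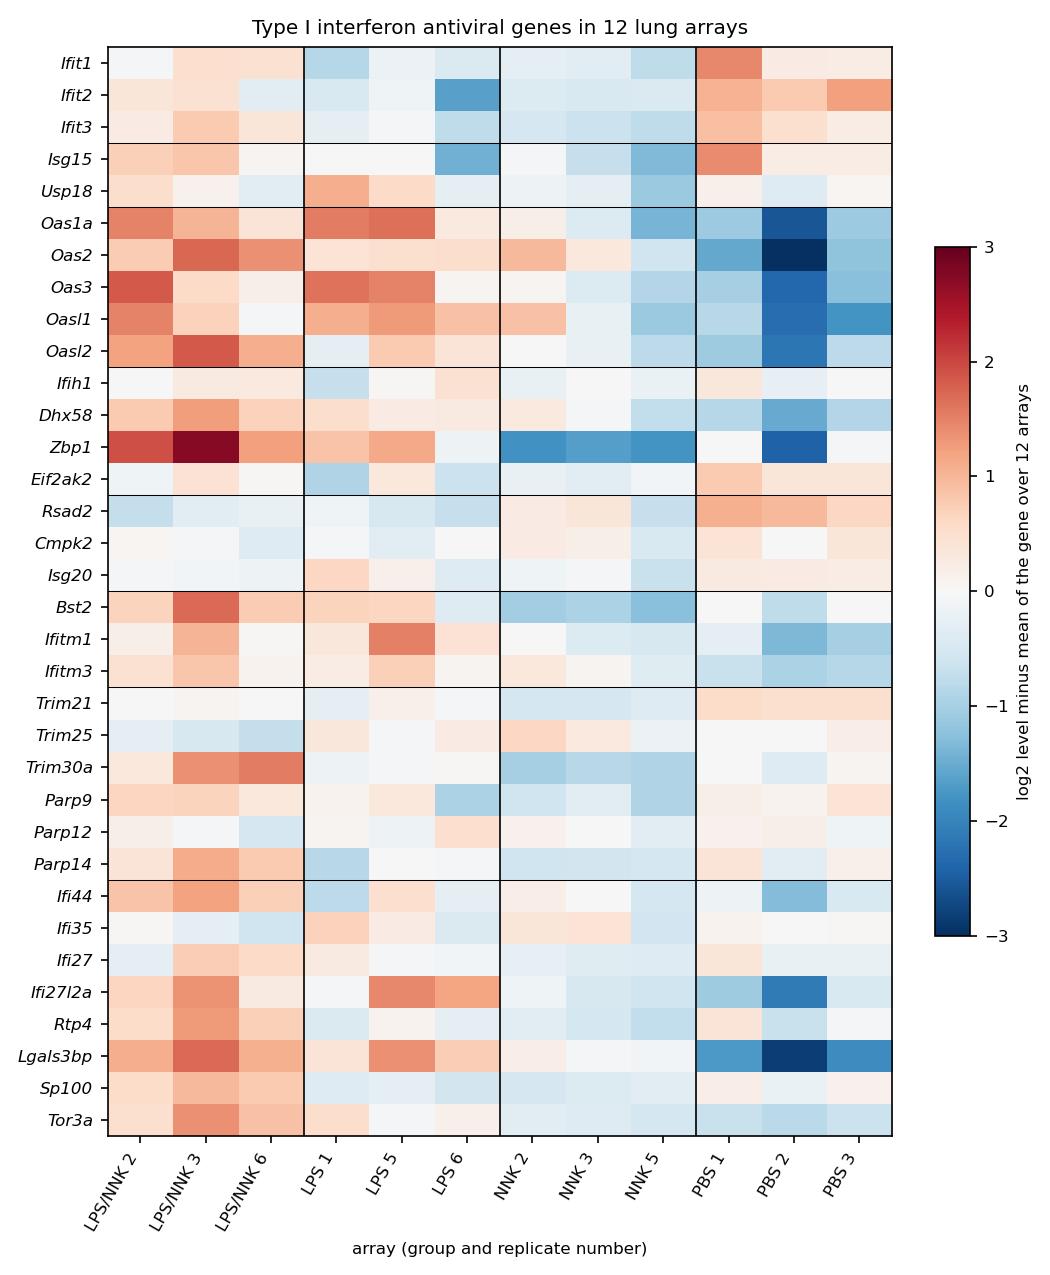
Level of each of 34 genes on 12 arrays as log2 level minus the gene's mean over the arrays (colour scale, red above and blue below the mean), with genes grouped by role and arrays by group. The OAS rows and Lgals3bp are blue on the 3 PBS arrays, the Ifit rows and Rsad2 are red there, and most rows are red on the LPS/NNK arrays. The strongest colours also stand for values beyond the scale's ends.

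The 3 IFIT genes, whose products bind viral RNA and block its translation, lie together on chromosome 19. They were lower than PBS in lungs given either agent alone, and in lungs given both none was called against PBS, although the Ifit2 arrays still lay below every PBS array. Ifit3 had log2 levels of 2.69, 3.23 and 2.82 in LPS/NNK lungs, 2.19, 2.41 and 1.68 in LPS lungs, 1.95, 1.82 and 1.69 in NNK lungs and 3.35, 2.94 and 2.68 in PBS lungs. Its LPS/NNK arrays lay above all NNK and LPS arrays and overlapped the PBS arrays. Ifit2 had log2 levels of -1.41, -1.31 and -2.10 in LPS/NNK lungs, -2.22, -1.89 and -3.39 in LPS lungs, -2.19, -2.23 and -2.21 in NNK lungs and -0.72, -0.99 and -0.53 in PBS lungs. Ifit1 had log2 levels of -0.74, -0.17 and -0.22 in LPS/NNK lungs, -1.54, -0.86 and -1.12 in LPS lungs, -0.95, -1.02 and -1.45 in NNK lungs and 0.76, -0.43 and -0.47 in PBS lungs. For both genes the LPS arrays and the NNK arrays lay below every PBS array.

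All 3 were called lower in LPS than in PBS lungs, Ifit2 by -1.76 (SE 0.35, limma adjusted p = 0.00107), Ifit1 by -1.13 (adjusted p = 0.0120) and Ifit3 by -0.89 (adjusted p = 0.0124). In NNK lungs the differences from PBS were -1.46 for Ifit2, -1.09 for Ifit1 and -1.17 for Ifit3, with limma adjusted p of 0.00407, 0.0161 and 0.00323. In LPS/NNK lungs none of the 3 was called against PBS, at -0.86, -0.33 and -0.07. Ifit3 was 2.14-fold higher in LPS/NNK than in NNK lungs (1.10, SE 0.27, limma adjusted p = 0.0151), while Ifit1 (0.76) and Ifit2 (0.60) were not called. Without PBS 1 and PBS 2, Ifit2 stayed called lower in LPS lungs (-1.97, adjusted p = 0.0213) and in NNK lungs (-1.68, adjusted p = 0.0456), and Ifit1 and Ifit3 were not called in either. Without PBS 1 alone, Ifit1 (adjusted p = 0.0636) and Ifit3 (adjusted p = 0.0625) were not called in LPS lungs, nor was Ifit1 in NNK lungs (adjusted p = 0.0824); it was not called there without NNK 5 either (adjusted p = 0.0592). The call of Ifit3 between LPS/NNK and NNK was lost without LPS/NNK 3 (adjusted p = 0.0715) or NNK 3 (adjusted p = 0.0568). After normexp background correction Ifit3 in NNK lungs was the one IFIT call against PBS that held. A dimmer second probe of Ifit2, above background on 8 of 12 arrays, gave 0.61 in LPS/NNK, opposite in sign to the -0.86 of the probe used, and -1.07 in LPS and -0.39 in NNK lungs against PBS.

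Of the ISG15 system, ISG15 is a ubiquitin-like protein joined to other proteins after interferon, and USP18 removes it and dampens the receptor. Isg15 had log2 levels of 0.39, 0.51 and -0.25 in LPS/NNK lungs, -0.33, -0.32 and -1.77 in LPS lungs, -0.35, -1.01 and -1.64 in NNK lungs and 1.09, -0.12 and -0.11 in PBS lungs. The NNK arrays lay below every PBS array, and LPS 6 and NNK 5 were the lowest of the 12. Isg15 was called lower in NNK than in PBS lungs (-1.29, SE 0.46, limma adjusted p = 0.0315). It was not called in LPS lungs (-1.10, adjusted p = 0.0565), nor between LPS/NNK and NNK lungs (1.22, adjusted p = 0.0832). The NNK call was lost without PBS 1 and PBS 2 (adjusted p = 0.312), and also without PBS 1 (adjusted p = 0.144), NNK 3 (adjusted p = 0.0714) or NNK 5 (adjusted p = 0.123). Usp18 had log2 levels of 1.27, 0.86 and 0.39 in LPS/NNK lungs, 1.83, 1.31 and 0.44 in LPS lungs, 0.59, 0.47 and -0.36 in NNK lungs and 0.89, 0.36 and 0.80 in PBS lungs. Its groups overlapped in every comparison, and none was called. Of 3 enzymes that attach ISG15 or resemble those that do, Uba7, the activating enzyme, was higher in LPS/NNK than in NNK lungs (1.28, SE 0.29, adjusted p = 0.0106) and Ube2l6, the conjugating enzyme, was lower (-1.05, SE 0.31, adjusted p = 0.0334), with Herc3 not called.

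The OAS proteins sense double-stranded RNA and make an oligoadenylate second messenger that switches on RNase L, and the OASL proteins are their relatives. The 5 tested genes lie on chromosome 5 and moved in the opposite direction to the IFIT genes against PBS. All 5 were called higher in LPS and in LPS/NNK lungs, and Oas2, Oasl1 and Oasl2 in NNK lungs. Oas2 had log2 levels of 0.54, 1.51 and 1.15 in LPS/NNK lungs, 0.21, 0.26 and 0.32 in LPS lungs, 0.76, 0.10 and -0.82 in NNK lungs and -1.75, -3.39 and -1.41 in PBS lungs. Its 3 PBS arrays were the 3 lowest of the 12. Oasl1 had log2 levels of -0.16, -0.95 and -1.72 in LPS/NNK lungs, -0.56, -0.36 and -0.78 in LPS lungs, -0.77, -1.87 and -2.76 in NNK lungs and -2.49, -3.93 and -3.43 in PBS lungs. Oasl2 had log2 levels of 4.00, 4.63 and 3.87 in LPS/NNK lungs, 2.50, 3.56 and 3.18 in LPS lungs, 2.79, 2.57 and 2.01 in NNK lungs and 1.72, 0.61 and 1.99 in PBS lungs. For Oasl2 the LPS/NNK arrays were the 3 highest.

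Oas1a had log2 levels of 2.65, 2.18 and 1.54 in LPS/NNK lungs, 2.70, 2.82 and 1.46 in LPS lungs, 1.32, 0.75 and -0.23 in NNK lungs and 0.06, -1.41 and 0.07 in PBS lungs. Oas3 had log2 levels of -0.65, -1.92 and -2.31 in LPS/NNK lungs, -0.87, -1.0 and -2.41 in LPS lungs, -2.42, -2.90 and -3.36 in NNK lungs and -3.48, -4.86 and -3.74 in PBS lungs. For both genes the LPS and LPS/NNK arrays lay above every PBS array, and PBS 2 was the lowest of the 12. In LPS lungs against PBS, Oas1a was 6.75-fold higher (2.76, SE 0.51, limma adjusted p = 0.000653), Oasl1 6.57-fold, Oas3 6.05-fold, Oas2 5.46-fold and Oasl2 3.12-fold higher. In NNK lungs the called differences were 2.20 for Oas2 (SE 0.48, adjusted p = 0.00260), 1.48 for Oasl1 (adjusted p = 0.0250) and 1.02 for Oasl2 (adjusted p = 0.0423), with overlapping arrays for Oasl1. In LPS/NNK lungs Oas2 was 9.52-fold and Oasl2 6.61-fold higher than in PBS lungs. Only Oasl2 of the 5 was called between LPS/NNK and NNK lungs (1.71, SE 0.39, adjusted p = 0.0109; 0.0522 without LPS/NNK 3), while Oas1a (1.51), Oas3 (1.27), Oas2 (1.05) and Oasl1 (0.86) were not.

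Without PBS 1 and PBS 2, Oas1a, Oas2, Oas3 and Oasl1 remained called in LPS lungs, at 2.26, 1.67, 2.31 and 2.86, and Oasl2 was not (1.09, adjusted p = 0.114). All 5 remained called in LPS/NNK lungs and none in NNK lungs. The NNK calls of Oasl1 and Oasl2 were also lost without PBS 2 (adjusted p of 0.103 and 0.204), NNK 2 (0.127 and 0.139) or NNK 3 (0.0537 and 0.108), that of Oasl1 without PBS 3 (0.0639) and that of Oasl2 without PBS 1 (0.0532). The OAS genes are near copies of each other, and signal shared between their probes was not tested.

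**Figure D3:**
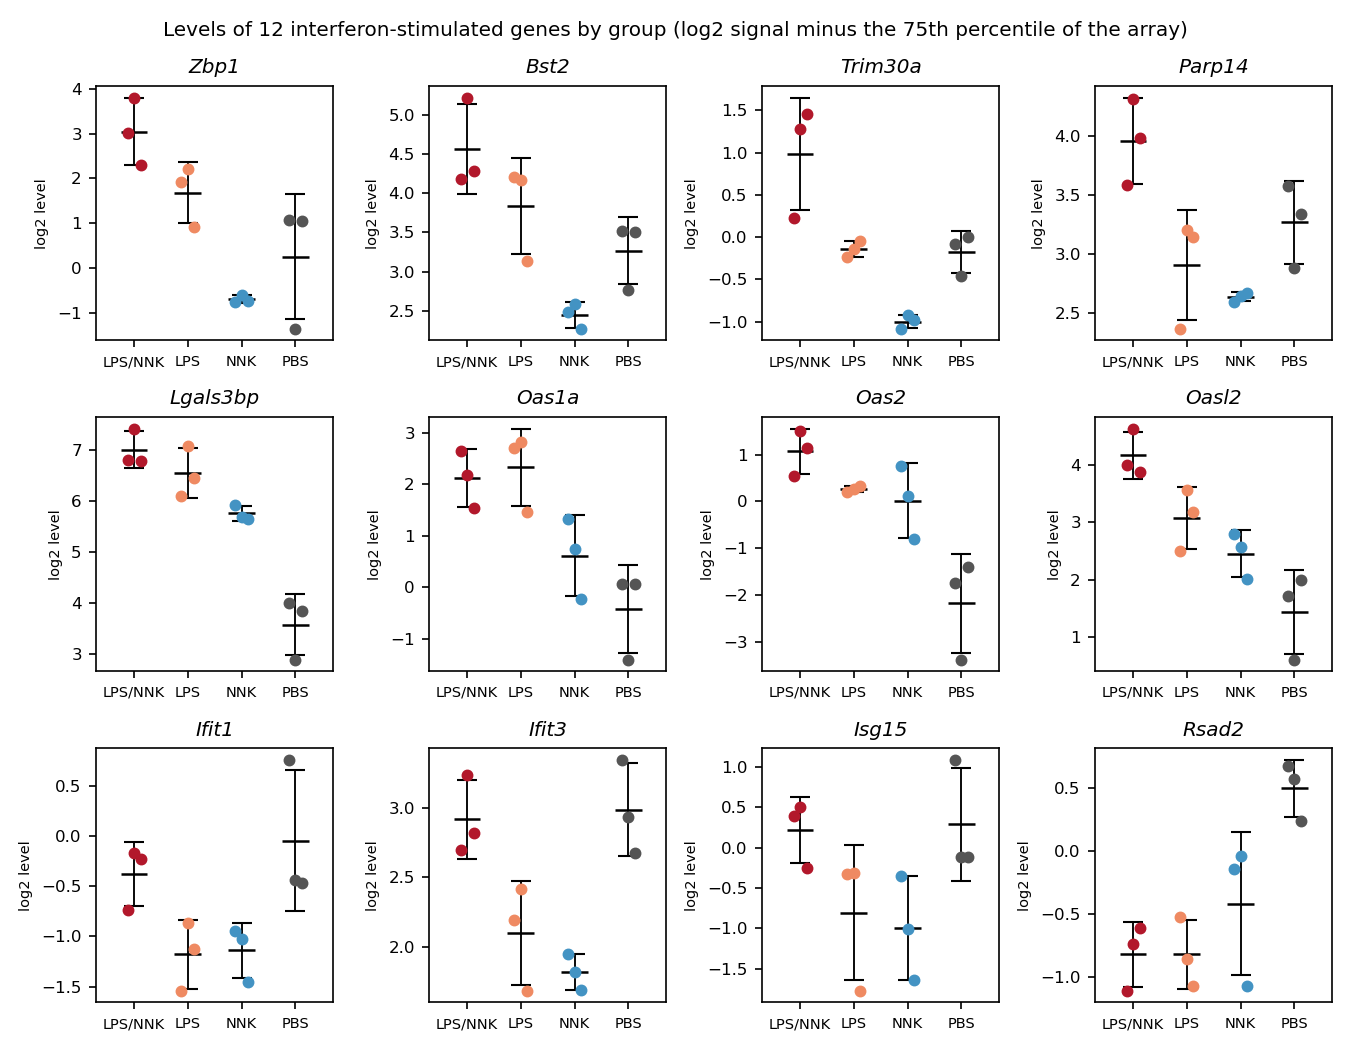
Levels (log2 signal minus the array's 75th percentile) of 12 genes in each mouse, with group mean and SD (bars, n = 3 per group). Zbp1, Bst2, Trim30a and Parp14 had their highest group mean in LPS/NNK and their lowest in NNK lungs, Lgals3bp and the OAS genes were lowest in PBS lungs, and Ifit1, Ifit3, Isg15 and Rsad2 had their highest single array in the PBS group.

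Among the nucleic acid sensors, Zbp1, which binds Z-form nucleic acid and can start inflammatory cell death, had the largest difference of all members between LPS/NNK and NNK lungs. Zbp1 had log2 levels of 3.01, 3.80 and 2.31 in LPS/NNK lungs, 1.92, 2.21 and 0.92 in LPS lungs, -0.75, -0.59 and -0.72 in NNK lungs and 1.07, -1.35 and 1.05 in PBS lungs. All LPS/NNK and all LPS arrays lay above the NNK arrays, and PBS 2 lay far below PBS 1 and PBS 3. Zbp1 was 13.2-fold higher in LPS/NNK than in NNK lungs (3.72, SE 0.57, limma adjusted p = 0.00124) and 5.17-fold higher in LPS than in NNK lungs (2.37, adjusted p = 0.0263). Against PBS it was called higher in LPS/NNK (2.78, adjusted p = 0.00124) and in LPS lungs (1.43, adjusted p = 0.0477), the second with overlapping arrays. That second call was lost without PBS 1 and PBS 2 (0.63, adjusted p = 0.417), and also without PBS 2 (adjusted p = 0.248), LPS 1 (0.117), LPS 5 (0.156), LPS/NNK 2 (0.0555) or any 1 NNK array (0.0576 to 0.0592).

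Dhx58 had log2 levels of 0.92, 1.39 and 0.84 in LPS/NNK lungs, 0.66, 0.38 and 0.40 in LPS lungs, 0.44, 0.07 and -0.60 in NNK lungs and -0.71, -1.37 and -0.74 in PBS lungs. Dhx58 (LGP2), a regulator of RNA sensing, was higher on every treated array than on every PBS array. It was called higher than PBS in LPS/NNK (1.99, SE 0.30, limma adjusted p = 0.000135), LPS (1.42) and NNK lungs (0.91, adjusted p = 0.0214), and higher in LPS/NNK than in NNK lungs (1.08, adjusted p = 0.0264). The last call was lost without LPS/NNK 3 (adjusted p = 0.112), NNK 3 (0.0713) or NNK 5 (0.0937), and that of NNK against PBS without NNK 2 (0.104), NNK 3 (0.0682) or PBS 2 (0.0989). The calls of Dhx58 in LPS (adjusted p = 0.0558) and NNK lungs (0.244) were lost without PBS 1 and PBS 2. Eif2ak2 had log2 levels of -0.15, 0.39 and 0.01 in LPS/NNK lungs, -0.94, 0.28 and -0.68 in LPS lungs, -0.26, -0.34 and -0.11 in NNK lungs and 0.75, 0.33 and 0.32 in PBS lungs. Eif2ak2 (PKR), the kinase that stops translation on double-stranded RNA, was lower in LPS than in PBS lungs (-0.91, SE 0.30, adjusted p = 0.0208), a call lost without PBS 1 and PBS 2 (0.221), PBS 1 alone (0.0814), LPS 1 (0.0857) or LPS 6 (0.0636). Ifih1 had log2 levels of 0.57, 0.85 and 0.87 in LPS/NNK lungs, -0.11, 0.62 and 1.04 in LPS lungs, 0.35, 0.58 and 0.37 in NNK lungs and 0.92, 0.34 and 0.60 in PBS lungs. Ifih1 (MDA5), a sensor of long double-stranded RNA, overlapped between all groups and was called in no comparison. A dimmer second probe of Ifih1 was above background on 9 of 12 arrays. It gave 0.92 for LPS/NNK minus NNK, 1.17 for LPS/NNK minus LPS and -0.69 for LPS minus PBS. The probe used gave 0.33, 0.25 and -0.10.

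Of the direct antiviral effectors, Rsad2 (viperin), which makes a chain-terminating nucleotide, was the one member called lower than PBS in all 3 treated groups. Rsad2 had log2 levels of -1.11, -0.74 and -0.61 in LPS/NNK lungs, -0.53, -0.86 and -1.07 in LPS lungs, -0.14, -0.04 and -1.07 in NNK lungs and 0.68, 0.57 and 0.24 in PBS lungs. All 9 treated arrays lay below the 3 PBS arrays. The differences from PBS were -1.32 in LPS/NNK lungs (SE 0.30, limma adjusted p = 0.00220), -1.32 in LPS lungs (adjusted p = 0.00235) and -0.91 in NNK lungs (adjusted p = 0.0206). The other probes of Rsad2 gave -2.26 and -1.75 in LPS/NNK, -2.37 and -1.71 in LPS and -2.58 and -1.98 in NNK lungs against PBS. Without PBS 1 and PBS 2 no group was called, at -1.06, -1.06 and -0.66, and the NNK call was also lost without NNK 5 (adjusted p = 0.0978), PBS 1 (0.0706) or PBS 2 (0.0599). Rsad2 was not called between LPS/NNK and NNK lungs (-0.40).

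Cmpk2 had log2 levels of -1.38, -1.48 and -1.82 in LPS/NNK lungs, -1.47, -1.76 and -1.45 in LPS lungs, -1.21, -1.25 and -1.91 in NNK lungs and -1.02, -1.45 and -1.09 in PBS lungs. Isg20 had log2 levels of 2.46, 2.41 and 2.34 in LPS/NNK lungs, 3.1, 2.62 and 2.09 in LPS lungs, 2.35, 2.45 and 1.81 in NNK lungs and 2.74, 2.72 and 2.71 in PBS lungs. Neither was called in any comparison. Cmpk2 is a mitochondrial nucleotide kinase next to Rsad2 on chromosome 12, and Isg20 is an RNA exonuclease. A dimmer second probe of Cmpk2 gave -1.96, -1.64 and -1.46 in LPS/NNK, LPS and NNK lungs against PBS, larger than the -0.38, -0.37 and -0.27 of the brighter probe.

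The membrane restriction factors were called higher than PBS in LPS/NNK lungs, 3 of 3, but 0 of 3 under quantile or cyclic loess normalization. Bst2 (tetherin) holds budding virus at the cell surface, and the IFITM proteins block fusion of virus with cell membranes. Bst2 had log2 levels of 4.19, 5.22 and 4.28 in LPS/NNK lungs, 4.20, 4.17 and 3.13 in LPS lungs, 2.49, 2.59 and 2.27 in NNK lungs and 3.52, 2.77 and 3.51 in PBS lungs. The NNK arrays were the 3 lowest of the 12. Bst2 was 4.32-fold higher in LPS/NNK than in NNK lungs (2.11, SE 0.35, limma adjusted p = 0.00215) and 2.61-fold higher in LPS than in NNK lungs (1.38, adjusted p = 0.0346). It was not called in LPS (0.57) or NNK lungs (-0.82) against PBS. Ifitm3 had log2 levels of 5.91, 6.30 and 5.58 in LPS/NNK lungs, 5.68, 6.18 and 5.56 in LPS lungs, 5.79, 5.56 and 5.10 in NNK lungs and 4.79, 4.51 and 4.61 in PBS lungs. Ifitm1 had log2 levels of 2.75, 3.60 and 2.63 in LPS/NNK lungs, 2.94, 4.09 and 3.02 in LPS lungs, 2.60, 2.18 and 2.10 in NNK lungs and 2.29, 1.24 and 1.59 in PBS lungs. Every treated array was above every PBS array for Ifitm3, and the LPS and LPS/NNK arrays were so for Ifitm1.

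Ifitm3 was called higher than PBS in LPS/NNK (1.29), LPS (1.16) and NNK lungs (0.84), and Ifitm1 in LPS/NNK (1.29) and LPS lungs (1.64). Scaling changed these. In LPS/NNK lungs the adjusted p under quantile and cyclic loess normalization was 0.199 and 0.189 for Bst2, 0.0577 and 0.0882 for Ifitm1, and 0.292 and 0.674 for Ifitm3. Under both no group was called for Ifitm3, and under cyclic loess its NNK difference was -0.10. Without PBS 1 and PBS 2, Ifitm3 stayed called in LPS/NNK lungs (1.32, adjusted p = 0.0357) and not in LPS (adjusted p = 0.0563) or NNK lungs (adjusted p = 0.155), and the LPS/NNK calls of Bst2 (1.05, adjusted p = 0.133) and Ifitm1 (1.40, adjusted p = 0.0599) were lost. The NNK call of Ifitm3 was also lost without NNK 2 (0.0869), NNK 3 (0.0640) or PBS 2 (0.0655), and the LPS/NNK call of Ifitm1 without LPS/NNK 3 (0.0546) or PBS 2 (0.0519).

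Of the 6 tested TRIM and PARP genes, Trim30a, Parp14 and Parp9 were called higher in LPS/NNK than in NNK lungs. Trim30a had log2 levels of 0.23, 1.28 and 1.46 in LPS/NNK lungs, -0.24, -0.14 and -0.05 in LPS lungs, -1.08, -0.93 and -0.99 in NNK lungs and -0.08, -0.46 and 0.01 in PBS lungs. Trim30a restrains inflammatory signalling through NF-kappaB in mice. The 3 LPS/NNK arrays were the highest of the 12 and the 3 NNK arrays the lowest. The difference was 1.99 (SE 0.30, limma adjusted p = 0.00105), and a second probe gave 2.15. Trim30a was also called higher in LPS/NNK than in LPS lungs (1.13, adjusted p = 0.0493) and than in PBS lungs (1.17, adjusted p = 0.00470), and lower in NNK than in PBS lungs (-0.82, adjusted p = 0.0331). The call against LPS was lost without any 1 array other than LPS/NNK 2 (adjusted p of 0.0614 to 0.203), and the NNK call without any 1 NNK array, PBS 1 or PBS 3 (0.0657 to 0.0978). Trim30a was called in neither LPS/NNK (adjusted p = 0.114) nor NNK lungs (0.126) against PBS once PBS 1 and PBS 2 were left out.

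Parp14 had log2 levels of 3.58, 4.31 and 3.98 in LPS/NNK lungs, 2.37, 3.21 and 3.15 in LPS lungs, 2.60, 2.65 and 2.67 in NNK lungs and 3.58, 2.89 and 3.34 in PBS lungs. Parp9 had log2 levels of 0.81, 0.83 and 0.47 in LPS/NNK lungs, 0.25, 0.48 and -0.79 in LPS lungs, -0.43, -0.17 and -0.74 in NNK lungs and 0.32, 0.26 and 0.58 in PBS lungs. Both belong to the ADP-ribosyltransferase family, and Parp9 pairs with Dtx3l. In LPS/NNK lungs they were higher than in NNK lungs by 1.32 (Parp14, SE 0.29, limma adjusted p = 0.00889) and 1.15 (Parp9, SE 0.31, adjusted p = 0.0236). The other probes of Parp14 gave 1.41 and 0.80. Parp9 was lower in NNK than in PBS lungs (-0.84, adjusted p = 0.0370), a call lost without NNK 2, NNK 5 or any 1 PBS array (0.0627 to 0.119), and without PBS 1 and PBS 2 (0.141). Its call between LPS/NNK and NNK was lost without LPS/NNK 3 (adjusted p = 0.0829), NNK 2 (0.0731) or NNK 5 (0.0741).

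Trim21 had log2 levels of -0.41, -0.32 and -0.38 in LPS/NNK lungs, -0.66, -0.25 and -0.45 in LPS lungs, -0.93, -0.90 and -0.78 in NNK lungs and 0.15, 0.09 and 0.07 in PBS lungs. Trim21, an antibody receptor in the cytosol, was lower on all 9 treated arrays than on the 3 PBS arrays. It was called lower than PBS in NNK (-0.97, SE 0.20, limma adjusted p = 0.00197) and in LPS lungs (-0.56, adjusted p = 0.0320), and not in LPS/NNK lungs (-0.47). The LPS call was lost without any 1 PBS array (adjusted p of 0.0865, 0.0728 and 0.0646) and without LPS 1 (0.0859) or NNK 3 (0.0527). Neither call of Trim21 held without PBS 1 and PBS 2 (adjusted p of 0.064 in NNK and 0.242 in LPS lungs). Trim25 had log2 levels of 2.61, 2.39 and 2.16 in LPS/NNK lungs, 3.22, 2.84 and 3.12 in LPS lungs, 3.50, 3.17 and 2.71 in NNK lungs and 2.87, 2.87 and 3.06 in PBS lungs. Trim25, a ubiquitin ligase of the RIG-I pathway, was the member with all LPS/NNK arrays below the NNK arrays (-0.74, adjusted p = 0.0572, not called), and a dimmer second probe gave 0.50. Parp12 was called in no comparison.

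Among the remaining 8 tested genes, Lgals3bp, a secreted glycoprotein, had the largest difference from PBS. Lgals3bp had log2 levels of 6.81, 7.42 and 6.79 in LPS/NNK lungs, 6.11, 7.09 and 6.46 in LPS lungs, 5.93, 5.70 and 5.65 in NNK lungs and 4.01, 2.89 and 3.84 in PBS lungs. All 9 treated arrays lay above the 3 PBS arrays, and the LPS/NNK and LPS arrays above the NNK arrays. Lgals3bp was 10.8-fold higher in LPS/NNK (3.43, SE 0.33, limma adjusted p = 7.96e-06), 7.84-fold in LPS (adjusted p = 2.65e-05) and 4.53-fold in NNK (adjusted p = 0.000365) than in PBS lungs, and stayed called in all 3 without PBS 1 and PBS 2. It was higher in LPS/NNK than in NNK lungs by 1.25 (adjusted p = 0.0233), a call lost without LPS/NNK 3 (0.101) or any 1 NNK array (0.0571 to 0.0787).

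Sp100 had log2 levels of 1.16, 1.60 and 1.42 in LPS/NNK lungs, 0.24, 0.36 and 0.07 in LPS lungs, 0.13, 0.22 and 0.28 in NNK lungs and 0.82, 0.42 and 0.76 in PBS lungs. Tor3a had log2 levels of 3.56, 4.46 and 3.95 in LPS/NNK lungs, 3.61, 3.04 and 3.23 in LPS lungs, 2.77, 2.71 and 2.56 in NNK lungs and 2.41, 2.28 and 2.43 in PBS lungs. Rtp4 had log2 levels of 3.27, 4.00 and 3.44 in LPS/NNK lungs, 2.30, 2.83 and 2.43 in LPS lungs, 2.40, 2.21 and 1.98 in NNK lungs and 3.12, 2.07 and 2.70 in PBS lungs. For Sp100 and Rtp4 the LPS/NNK arrays were the 3 highest of the 12, and for Tor3a LPS 1 lay among them. Sp100, a nuclear body protein that represses viral DNA, was higher in LPS/NNK than in NNK (1.19, SE 0.22, limma adjusted p = 0.00377) and LPS lungs (1.17, SE 0.22, adjusted p = 0.0180), the second lost without LPS/NNK 3 (0.0835) or LPS/NNK 6 (0.0738), and a second probe of Sp100 gave -0.20 for it. Tor3a, a torsin-family ATPase, was higher in LPS/NNK than in NNK lungs by 1.31 (SE 0.26, adjusted p = 0.00506) and Rtp4, a receptor transporter protein that restrains interferon responses in mice, by 1.38 (SE 0.30, adjusted p = 0.00867). Of the other members, Ifi27l2a was called higher than PBS in LPS (2.07) and LPS/NNK lungs (1.96) and Ifi44 in LPS/NNK lungs (1.56), while Ifi27 and Ifi35 were called in no comparison. The calls of Sp100 and Rtp4 in LPS/NNK against PBS lungs (0.72 and 0.94) were lost without LPS/NNK 3 (adjusted p of 0.0590 and 0.0810) or PBS 2 (0.0662 and 0.0920). With the mean of its probes, Sp100 in LPS/NNK lungs was called neither against PBS (0.48, limma adjusted p = 0.099) nor against LPS lungs (0.48, adjusted p = 0.21). With PBS 1 and PBS 2 left out, the calls against PBS of Sp100 (0.172), Rtp4 (0.113) and Ifi44 (0.053) in LPS/NNK lungs, of Ifi27l2a in LPS/NNK (0.121) and LPS lungs (0.099) and of Tor3a in LPS lungs (0.130) were lost.

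By group mean, LPS/NNK was the highest group for 16 of 34 members, PBS for 9, LPS for 8 and NNK for 1, and NNK was the lowest for 14, PBS for 12, LPS for 4 and LPS/NNK for 4. Many places in that order rest on no call, since 2 members were called between LPS/NNK and LPS and 2 between LPS and NNK. The arrays of the first group all lay above those of the second for 12 and 11 members (12.9% and 8.57% of all items). With 3 arrays per group, a missing call does not show equal levels. Against PBS, 6 members were called higher in all 3 treated groups (Dhx58, Ifitm3, Lgals3bp, Oas2, Oasl1 and Oasl2), 6 in LPS and LPS/NNK but not NNK lungs (Ifi27l2a, Ifitm1, Oas1a, Oas3, Tor3a and Zbp1), and 4 in LPS/NNK lungs alone (Bst2, Ifi44, Rtp4 and Sp100). Ifit1, Ifit2, Ifit3 and Trim21 were called lower in LPS and NNK lungs and in neither direction in LPS/NNK lungs. The order of group means and these patterns were not counted over all items, so they cannot be read as particular to the members. Of all items, 51.5% to 56.0% were called in each comparison with PBS, and these comparisons share the PBS arrays. The SD between mice of a group had a median over members of 0.36 in LPS/NNK, 0.48 in LPS, 0.27 in NNK and 0.34 in PBS lungs, and was largest for Zbp1 in PBS lungs at 1.39.

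The difference that LPS made was compared in mice with and without NNK by the interaction, the LPS/NNK minus NNK difference less the LPS minus PBS difference, whose parts share no arrays. It was called for 14 members, 13 higher and 1 lower, where 20.1% of all items were called higher and 18.6% lower (38.7% either way). The most significant were Ifit3 (1.99, SE 0.38, limma adjusted p = 0.00282), Sp100 (1.63, SE 0.31, adjusted p = 0.00284), Ifit2 (2.36, SE 0.49, adjusted p = 0.00405), Trim30a (1.95, SE 0.42, adjusted p = 0.00455) and Parp14 (1.68, SE 0.41, adjusted p = 0.00780). A second probe of Sp100 gave an LPS difference of 1.32 with NNK and 0.44 without, where the probe used gave 1.19 and -0.45. For Ifit1, Ifit2, Ifit3, Trim21 and Eif2ak2 the LPS difference was positive with NNK, where only that of Ifit3 was called, and was called negative without NNK. Lgals3bp was the 1 member called lower (-1.72, SE 0.47, adjusted p = 0.0134): LPS added 1.25 with NNK and 2.97 without. None of the 5 OAS genes was called, at -1.86 to 0.07. The count was 6 higher and 0 lower without PBS 1 and PBS 2, where 5.83% of all items were called higher and 6.21% lower. It was 0 and 0 after normexp correction of the median spot signal with an offset, where 0.146% and 0.114% of all items were called. The differences of the 14 kept their signs there, at 2.20 for Ifit3, 2.13 for Parp14, 1.89 for Bst2, 1.79 for Rtp4 and 1.48 for Sp100, but 0.97 for Ifit2 and 1.13 for Trim30a. The 1 lower call became 4 without NNK 5 or LPS/NNK 2, where 17.5% and 20.6% of all items were called lower.

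**Figure D4:**
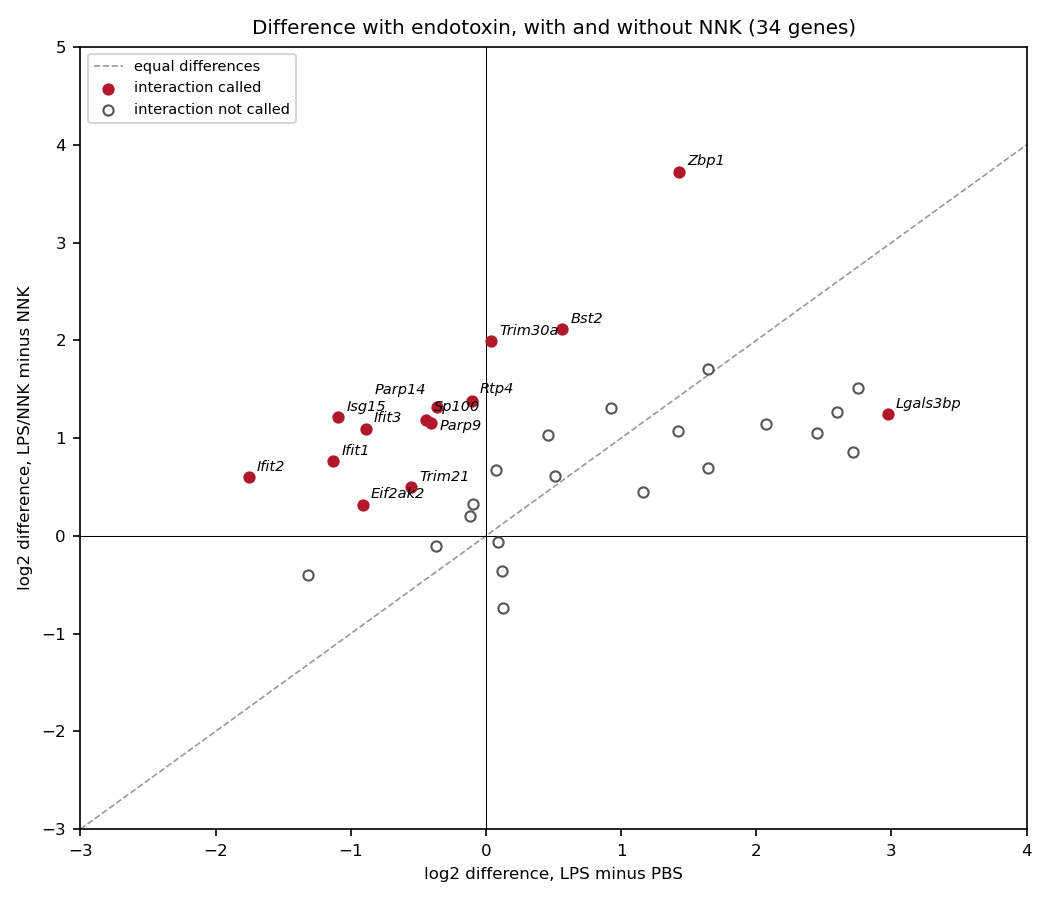
Log2 difference that LPS made with NNK (LPS/NNK minus NNK, vertical) and without NNK (LPS minus PBS, horizontal) for 34 genes, with filled points where the interaction was called. The 13 genes called higher lie above the dashed line of equal differences and Lgals3bp below it.

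The genes upstream of the antiviral set were examined in lists chosen from textbook roles. Of 18 type I and III interferon genes, 5 were tested, and the probe of Ifnb1, interferon beta, was not well above background on any array. Between LPS/NNK and NNK lungs 0 of the 5 were called by limma. Against PBS all 5 (Ifna1, Ifnab, Ifnz, Ifna9 and Ifna13) were called higher in LPS/NNK lungs, at 0.95 to 2.64. In NNK lungs 4 and in LPS lungs 3 of the 5 were also called higher than PBS. The medians were 1.38 in LPS/NNK, 1.16 in NNK and 0.87 in LPS lungs. Of all items 27.9%, 27.8% and 26.1% were called higher in the same groups. These calls were not checked without PBS 1 and PBS 2. Ifna1 was above background on no LPS or NNK array, so it was tested through the other groups. The lowest log2 level among probes above background was -6.09 to -4.60 on treated arrays and -6.50 to -6.39 on PBS arrays, and its part in differences of such dim probes was not tested. Ifnab had log2 levels of -2.40, -2.28 and -2.21 in LPS/NNK lungs, -3.91, -3.74 and -4.12 in LPS lungs, -3.52, -2.60 and -2.94 in NNK lungs and -5.02, -4.55 and -5.25 in PBS lungs. Every treated array was above every PBS array. The interferon alpha genes are close copies, and sharing of signal between their probes was not tested.

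Of 6 receptor genes 0 were called between LPS/NNK and NNK lungs, and of 11 sensors and adaptors upstream of interferon also 0, with Tlr4 at 0.81 and Tbk1 at 0.94. Of the genes of signalling to the response element, Irf8 was higher in LPS/NNK than in NNK lungs by 1.55 (limma adjusted p = 0.00114), Irf1 by 1.62 (adjusted p = 0.00162) and Irf9 by 0.81 (adjusted p = 0.0357). Stat2 (0.78, adjusted p = 0.0876) and Irf7 (0.03) were not called. Of 6 feedback inhibitors, Socs1 (2.73, SE 0.40, adjusted p = 0.000989) and Ptpn2 (0.99, adjusted p = 0.0397) were higher and Pias3 was lower (-2.00, SE 0.47, adjusted p = 0.0130).

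Interferon gamma and the genes it is known to raise also differed between the groups. Ifng had log2 levels of 1.24, 1.83 and 2.30 in LPS/NNK lungs, -0.15, 0.72 and -0.56 in LPS lungs, -3.98, -3.14 and -3.18 in NNK lungs and -2.28, -3.36 and -1.92 in PBS lungs. LPS/NNK and LPS arrays lay above all NNK and PBS arrays. Ifng was 37.3-fold higher in LPS/NNK than in NNK lungs (5.22, SE 0.43, limma adjusted p = 3.79e-05). Of 13 tested genes of this list 12 were called higher and 0 lower in that comparison, with a median of 2.68, among them the chemokine Cxcl9 (6.99) and the GTPase Iigp1 (4.00). The GTPase Gbp2b was not well above background on any NNK array and was at least 32.7-fold higher in LPS/NNK lungs, the bound being the LPS/NNK mean against the higher of the NNK signal and the array's lowest detected signal (adjusted p = 0.000585). In NNK against PBS lungs 5 of the 13 were called lower and 0 higher, with a median of -1.44. The list's summed signal was 21.7 to 27.51 on NNK arrays and 21.35 to 110.7 on PBS arrays. Whether these calls hold without PBS 1 and PBS 2 was not tested. Zbp1, Bst2 and other members also respond to interferon gamma, so the lists are not separate readouts of 2 interferons.

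Markers of leukocytes differed by cell type and comparison. In NNK against PBS lungs the median was 0.50 for T cell, 0.58 for monocyte and macrophage and 0.45 for B cell markers. It was -0.63 for natural killer cell and -0.19 for neutrophil markers, and -0.29 for the members. Of 9 T cell markers 4 were called higher and 1 lower there, and of 10 monocyte and macrophage markers 5 and 2. Of all items 27.8% were called higher and 23.7% lower. Between LPS/NNK and NNK lungs 7 of 9 T cell markers were called higher and 0 lower, with a median of 2.64, and 9 of 10 monocyte and macrophage markers, with a median of 2.33. The summed signal of the T cell markers, relative to the 75th percentile, was 99.3 to 196 in LPS/NNK, 68.8 to 90.8 in LPS, 17.9 to 23.0 in NNK and 9.84 to 12.5 in PBS lungs, and that of the monocyte and macrophage markers was 178 to 225, 125 to 151, 34.5 to 38.0 and 20.6 to 32.7 in the same groups. Of 8 markers of plasmacytoid dendritic cells, a major source of interferon alpha, Pacsin1 and Klk1 were called higher, and Siglech was well above background on no LPS array. Neutrophil markers gave 0 called higher and 1 lower of 6, natural killer cell markers 1 higher of 7 and B cell markers 2 higher of 6. The lung's own epithelial and endothelial markers were above background in every group, with 0 of 16 called higher and 2 lower between LPS/NNK and NNK lungs. The part of these cells in the differences of the antiviral genes was not tested.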

How the data were processed

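Lung RNA of 12 mice, labelled with Cy3, was hybridised to Agilent mouse arrays of 1 design, 3 arrays in each of 4 groups taken from the sample labels. The deposited scanner files hold an intensity for each of 45018 spots, 43379 of them not controls. Per the file headers these came from Agilent Feature Extraction 10.7.3.1 (10.7 in the submitters' processing notes), which subtracted background within each array. The deposited series table holds log2 values. Partek is named in the submitters' processing notes, with no version. The deposited log2 values equalled log2 processed intensity minus each array's 75th percentile, as computed here, to within 0.000176.

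Outlier spots (39 to 99 per array, per the deposited files' flags) were left out and spots of a probe averaged, giving 41174 probes, with 37 probes dropped. No spot was saturated. Of all probes 24355 (59.2%) were named through the RefSeq transcript they carry, and the rest kept their identifier. Probes stayed in if 1 or more groups had all 3 arrays well above background, and the brightest probe stood for a gene. Levels were log2 processed intensity minus the log2 of the array's 75th percentile. One limma fit (3.58.1, R 4.3.3, lmFit and eBayes, 8 residual and 5.49 prior degrees of freedom) with a mean per group gave all comparisons, 2-sided, with Benjamini-Hochberg adjustment over 21863 items and calls under 0.05. The smallest p of an exact test of 3 arrays against 3 exceeds that threshold. The number of arrays limits precision. The fit was tested on simulated data. Figures were drawn with Python 3.11.15 and matplotlib 3.10.9.

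The members, gene lists, tests and most alternatives were chosen with earlier results of these data known. Values per array are given for the 3 members of each role with the smallest p between LPS/NNK and NNK, for members called against the majority direction of a comparison, and for up to 5 members called in the interaction, and up to 4 genes are named per other list. A few members and probes were added after their values were seen. The normexp alternative (offset 50) used the median spot signal, where the mean had been planned. Promoters came from RefSeq (GRCm38.p6). Genomic positions of probes were not used here, and 1 gene of the signalling list is not reported here.

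Slides and positions on them were read from the file headers. PBS 1 and LPS/NNK 6 shared a slide, as did PBS 3 and NNK 2, NNK 3 and LPS/NNK 2, and NNK 5 and LPS/NNK 3. PBS 2 and the 3 LPS arrays each lay on a slide of their own among these arrays.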

Additional observations from a re-analysis of the deposited data

Results flagged for a closer look

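For 14 antiviral genes the difference that LPS made in mice given NNK (LPS/NNK minus NNK) was itself tested against the difference it made without NNK (LPS minus PBS), and passed at a limma adjusted p under 0.05. With 34 members tested, the number called was near the share of all items called either way, 38.7%. By direction 13 were called higher and 1 lower, where 20.1% and 18.6% of all items were. The interaction was 1.99 for Ifit3, 1.63 for Sp100, 2.36 for Ifit2, 1.95 for Trim30a, 1.68 for Parp14, 1.89 for Ifit1, 1.06 for Trim21, 2.31 for Isg15, 1.56 for Parp9, 1.48 for Rtp4, 1.55 for Bst2, 1.23 for Eif2ak2 and 2.30 for Zbp1 on the log2 scale. It was -1.72 for Lgals3bp. Adjusted p lay between 0.00282 (Ifit3) and 0.0387 (Zbp1).

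Ifit2, Ifit3, Parp14, Sp100, Trim30a and Zbp1 were also called without PBS 1 and PBS 2. The calls of Bst2, Eif2ak2 and Zbp1 were each lost without PBS 1, among other single arrays. After normexp background correction 0 members were called, with Ifit3 nearest at an adjusted p of 0.0548. The differences kept their signs, at 0.67 (Trim21) to 2.20 (Ifit3) for the 13 and -1.20 for Lgals3bp. Of all 21863 items 57 were called there, in place of 8462. The part of background treatment, signal column, offset, slide and sex of the PBS mice in the interaction was not tested beyond these values.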

How the results depend on the processing

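Of 80 member calls over the 7 comparisons, 1 changed sign: Ifitm3 in NNK against PBS lungs was -0.0988 under cyclic loess. The array median and normexp moved the median of all items by over 0.1 (LPS minus PBS -0.06 as reported, 0.34 and 0.33; NNK minus PBS 0.04, 0.24 and 0.55; LPS/NNK minus PBS -0.04, 0.26 and 0.53), and relative to it the members' median was 0.16, 0.16 and -0.26 for LPS, -0.32, -0.32 and -0.96 for NNK and 0.75, 0.75 and -0.08 for LPS/NNK against PBS. Between LPS/NNK and NNK it was 1.10, 1.10 and 1.01. The filter moved the median of all items too, to 0.49 (LPS), 0.50 (NNK) and 0.48 (LPS/NNK) against PBS with no filter and to 0.18, 0.22 and 0.19 with probes above background on all arrays. The members' median relative to it was then -0.37, -0.77 and 0.24 with no filter and -0.08, -0.51 and 0.51 with the second.

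Normexp kept 37 of the 80 calls. It gave 7 members higher in LPS/NNK than in NNK, 1 lower in LPS than in PBS, 5 lower in NNK than in PBS, a median of 0.45 for LPS/NNK minus PBS, 0 higher calls between LPS/NNK and LPS, 0 between LPS and NNK, and 0 higher and 0 lower in the interaction. For these counts, in that order, the shares of all items were 1.53%, 6.83%, 6.50%, 0%, 0.892%, 0.146% and 0.114%. Quantile normalization gave 15 lower in NNK and 5 lower in LPS/NNK than in PBS with a median of 0.29 for the second, 1 higher between LPS/NNK and LPS, 1 between LPS and NNK, and 2 lower in the interaction. Of all items 26.2%, 29.2%, 2.25%, 2.90% and 19.4% were called so, in that order. Cyclic loess gave 14 lower in NNK (26.7% of all items) and 3 lower in LPS/NNK (28.7%) than in PBS, with a median of 0.22 for the second. The array median gave 2 lower in LPS and 4 lower in NNK than in PBS, medians of 0.50 for LPS and 1.01 for LPS/NNK minus PBS, 1 higher between LPS/NNK and LPS, and 4 lower with a median of 0.10 in the interaction. For these counts the shares of all items were 19.8%, 17.9%, 2.27% and 26.7%. Without the filter on dim probes 1 member was higher between LPS/NNK and LPS (0.823% of all items) and 1 between LPS and NNK (1.47%). Probes above background on all arrays gave 1 lower in LPS/NNK than in NNK, 2 lower in LPS/NNK than in PBS, 4 higher between LPS/NNK and LPS and 2 lower in the interaction, and so did eBayes with trend. The mean of a gene's probes gave 2 lower in LPS/NNK than in PBS (28.7% of all items) with a median of 0.43. Fits of only the groups compared gave 2 lower in LPS/NNK than in PBS (26.5%) and 0 higher between LPS/NNK and LPS (0.146%). Slide as a random block gave 1 lower in LPS/NNK than in NNK (12.6% of all items), 3 lower in LPS/NNK than in PBS (28.5%) and 1 higher between LPS/NNK and LPS (2.56%). Slide as a fixed block gave 2 higher and 4 lower in NNK than in PBS (17.7% and 12.7% of all items). It gave 13 higher in LPS/NNK than in NNK (5.46%), with the calls of Dhx58 (limma adjusted p = 0.0549) and Ifit3 (0.0709) lost and others gained. The fixed block could not be fitted for comparisons with LPS.

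Without PBS 1 and PBS 2, LPS gave 6 higher and 1 lower, NNK 1 and 1, LPS/NNK 10 and 0 against PBS, the interaction 6 and 0, and 1 was higher between LPS/NNK and LPS. Leaving out 1 array gave, for LPS/NNK against NNK, 7 to 14 higher and 0 to 1 lower with a median of 0.72 to 1.16. For LPS against PBS it gave 11 to 13 higher and 2 to 7 lower with a median of 0.10 to 0.14, and for NNK against PBS 2 to 7 and 3 to 10 with a median of -0.40 to -0.15. For LPS/NNK against PBS it gave 14 to 19 and 1 to 2 with a median of 0.55 to 0.86, for LPS/NNK against LPS 0 to 6 higher, for LPS against NNK 0 to 5 higher, and for the interaction 10 to 13 and 1 to 4 with a median of 0.33 to 0.56.

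A replicate block on the mouse number gave 16 higher and 1 lower in LPS/NNK against NNK, 13 and 5 in LPS, 6 and 6 in NNK and 17 and 1 in LPS/NNK against PBS, 2 and 0 between LPS/NNK and LPS, 2 and 0 between LPS and NNK, and 13 and 3 in the interaction. In that order the shares of all items were 7.62% and 9.28%, 23.5% and 30.5%, 26.2% and 24.9%, and 26.3% and 28.8%. Between LPS/NNK and LPS, between LPS and NNK and in the interaction they were 5.42% and 3.22%, 2.48% and 3.76%, and 22.2% and 17.4%. Deviations of same-numbered arrays correlated at -0.147 to 0.408, not all above 0.1. With so few arrays this cannot show whether the numbers pair the mice, and the main fit used no pairing. The cause of these changes was not tested. With 3 arrays per group, the number of arrays limits precision.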
